A study of Homo sapiens with 45 samples.

Results

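TGF-beta, activin and BMP signalling genes were followed in 3 human carcinoma lines transfected with 1 of 3 microRNA precursors. The group was listed by name: 45 genes that encode the ligands of these pathways, the proteins that store or bind the ligands, the receptors, the SMAD proteins, their inhibitors and the textbook target genes. Of the 45, 44 had a probe set annotated to a single gene and were measured, and BMPR1A is not analysed here. All 44 passed the filter on low values that left 15599 genes for testing. Each gene was read from its brightest probe set on average over all arrays, and values are log2 intensities, so that a difference of 1 log2 unit is a 2-fold difference.

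HEY and SKOV3 come from ovarian and PC3 from prostate carcinoma. A cationic lipid reagent was used to deliver a Pre-miR precursor (33 nM, 48 h) that was active, for miR-203a, for miR-205 or for miR-429, or was the control, miR-NC; further cells of each line are labelled untransfected. This gave 15 groups of 3 arrays, 45 in all, and the series asks how the mesenchymal-to-epithelial transition driven by these microRNAs varies between kinds of cancer cell. All transfected groups therefore shared the lipid and a precursor RNA, and each line is a single established culture grown in the same serum-containing medium.

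Ligands of the TGF-beta family bind pairs of type II and type I receptor kinases. TGF-beta and activin receptors phosphorylate SMAD2 and SMAD3, BMP receptors phosphorylate SMAD1 and SMAD5, and both classes join SMAD4 to act on transcription; SMAD6, SMAD7, the SMURF ubiquitin ligases and the SKI and SKIL corepressors limit the signal. In carcinoma cells TGF-beta signalling is a well-known inducer of the epithelial-to-mesenchymal transition, and miR-203a, miR-205 and the miR-200 family, to which miR-429 belongs, are known for holding cells in the epithelial state.

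The mature microRNAs are shown because every comparison turns on them; capitals mark the seed, bases 2 to 8, which pairs with target messages. The labels do not name the arm of each precursor, so the arms given are the usual mature products in RefSeq (GRCh38.p14), and miR-200b is added only to show the seed it shares with miR-429.
hsa-miR-203a-3p: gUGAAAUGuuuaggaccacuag
hsa-miR-205-5p: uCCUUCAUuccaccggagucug
hsa-miR-429: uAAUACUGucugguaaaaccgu
hsa-miR-200b-3p: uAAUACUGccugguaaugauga
They lie at chr14:104117469-104117490, chr1:209432166-209432187, chr1:1169055-1169076 and chr1:1167160-1167181, all on the plus strand. The 3 transfected microRNAs have 3 different seeds.

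Some features of the arrays bear on all values. A control probe set at the 5′ end of GAPDH, a sign of RNA or labelling quality, was nearly level over the SKOV3 groups (differences from miR-NC between -0.0381 and 0.0099). In HEY it differed from miR-NC by 0.58 (miR-203a), 3.92 (miR-205) and -2.11 (miR-429), and in PC3 by 4.95, 3.66 and -0.50 in the same order. The set at the 3′ end of GAPDH differed by 0.067, 1.48 and 1.31 in HEY and by 2.01, 1.82 and -0.32 in PC3. The 5′ values alone therefore do not separate RNA quality from the level of GAPDH. With miR-NC the 5′ and 3′ sets averaged 13.7 and 13.8 in SKOV3, 8.37 and 12.3 in HEY and 5.04 and 10.3 in PC3. In HEY they averaged 12.3 and 13.8 with miR-205 and 6.25 and 13.6 with miR-429. The gap between the ends thus differed between lines and between groups of a line, and its part in the results was not tested. ERBB2 averaged 11.3 in SKOV3, 6.83 in HEY and 6.37 in PC3 with miR-NC, but 12.3 on the arrays labelled untransfected HEY and 7.60 on those labelled untransfected SKOV3, so these 6 arrays went against their labels. HOXB13, a textbook prostate gene, averaged 6.56 in PC3 and 6.70 in SKOV3 with miR-NC and so did not separate these lines, and it read 4.36 on the PC3 arrays with the untransfected label and 11.7 on those of SKOV3 with that label. The 9 arrays labelled untransfected entered no comparison. They did enter the shared estimate of the spread, the choice of the brightest probe set and the filter on low values. Among markers of other cells, PTPRC, CD3E, CD14, HBB and LYZ had no transfected group mean above 5.29 and COL3A1, DCN, COL1A2 and PDGFRB none above 5.37, near the median of all values (4.89), while COL1A1 reached 12.5 and LUM 9.17. Array medians were lower in PC3 with miR-429 (4.49 to 4.51) than in PC3 with miR-NC (4.89 to 4.93), and values in that comparison were not adjusted for this. Replicate arrays of transfected cells correlated at 0.981 or better. The labels do not say whether they came from separate cultures, so p-values measure only the spread between these arrays.

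Between 12 and 36 of the 44 genes were called in a comparison of an active precursor with miR-NC. Each active precursor was set against miR-NC of its line with limma, and a gene was called at an adjusted p under 0.05 over all 15599 genes; the 3 comparisons of a line share its miR-NC arrays. In these bulk RNA samples, fewer cells of a kind and less RNA per cell cannot be told apart. Shares of all genes called are given in parentheses as the background. In HEY with miR-203a 12 members were called (13.2%), of which 6 rose (5.82%) and 6 fell (7.33%). In HEY with miR-205 36 were called (65.8%), 10 higher (33.6%) and 26 lower (32.2%), and with miR-429 25 (56.8%), 6 higher (21.0%) and 19 lower (35.7%). The falls of members with miR-205 in HEY thus covered a larger share than those of all genes, and the rises a smaller one.

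In SKOV3 12 members were called with miR-203a (11.9%), 8 higher (7.06%) and 4 lower (4.88%). With miR-205 17 were called there (25.6%), 15 higher (16.8%) and 2 lower (8.81%), and with miR-429 17 (22.1%), 11 higher (14.9%) and 6 lower (7.18%). In PC3 24 were called with miR-203a (56.1%), 15 higher (31.1%) and 9 lower (25.0%). With miR-205 20 were called in PC3 (48.4%), 12 higher (28.7%) and 8 lower (19.7%), and with miR-429 23 (46.0%), 13 higher (16.3%) and 10 lower (29.7%). Single arrays moved some counts: that for miR-203a in HEY was 7 without HEY miR-NC replicate 2 or HEY miR-203a replicate 1, that for miR-205 in SKOV3 was 11 without SKOV3 miR-NC replicate 1, and that for miR-429 in PC3 was 14 without PC3 miR-429 replicate 3.

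As shares of the 44, the members' counts were 27.3%, 81.8% and 56.8% in HEY, 27.3%, 38.6% and 38.6% in SKOV3, and 54.5%, 45.5% and 52.3% in PC3. The shares in PC3 and that for miR-429 in HEY lay near the background, and those for miR-203a and miR-205 in HEY and for miR-203a, miR-205 and miR-429 in SKOV3 lay above it. With miR-205 the median member differed from miR-NC by -0.71 in HEY, where the median gene differed by 0.058. The medians with miR-205 were 0.26 in SKOV3 (all genes 0.027) and 0.052 in PC3 (0.054). With miR-429 the medians were -0.36 in HEY (all genes -0.15), 0.051 in SKOV3 (-0.014) and -0.038 in PC3 (-0.13), and with miR-203a they were 0.16 (0.015), 0.092 (0.0039) and 0.074 (0.056).

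**Figure D1:**
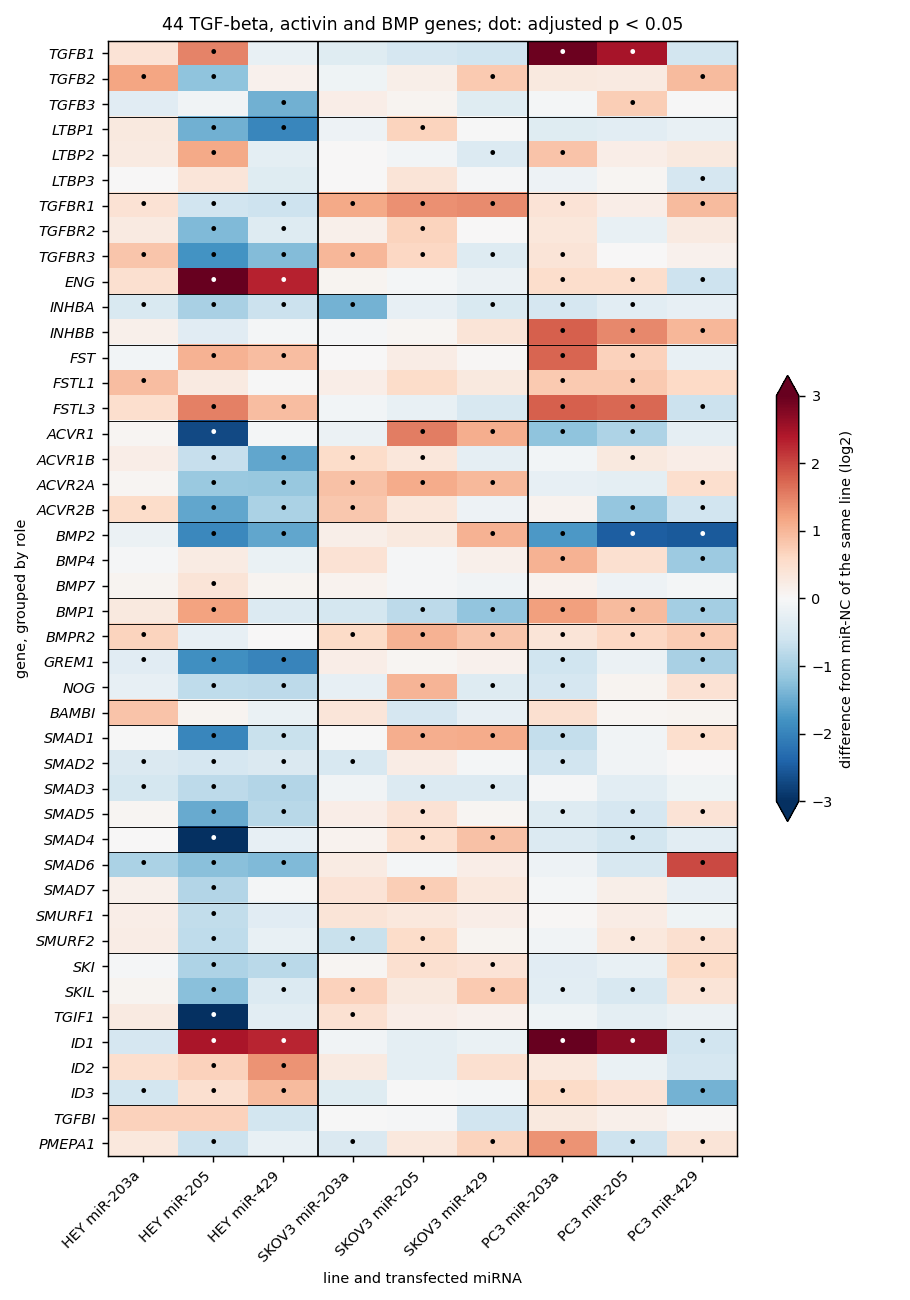
Differences from miR-NC (log2 units, colour scale) of the 44 measured genes, grouped by role, in the 9 comparisons of an active precursor with the control precursor of its line; dots mark the differences called by limma. The column for miR-205 in HEY holds 26 falls and 10 rises, and that for miR-205 in SKOV3 holds 15 rises and 2 falls.

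Levels with miR-NC show how the lines stood without an active miRNA. Between the miR-NC groups, 39 members differed between SKOV3 and HEY (78.4% of all genes), 15 higher (35.0%) and 24 lower (43.4%) in SKOV3. Between PC3 and HEY 27 differed (56.6%), 12 higher (25.5%) and 15 lower (31.1%) in PC3, and between PC3 and SKOV3 34 differed (81.2%), 24 higher (44.2%) and 10 lower (36.9%) in PC3. These were 88.6%, 61.4% and 77.3% of the members, the latter 2 shares near the background. The 5′ GAPDH control probe set differed as well, with means of 13.7 in SKOV3, 8.37 in HEY and 5.04 in PC3 with miR-NC, and its part in the line differences was not tested. Other probe sets often went the other way: at least 1 did for 21 of the 30 called members that had any between SKOV3 and HEY, for 6 of 20 between PC3 and HEY and for 18 of 25 between PC3 and SKOV3.

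ID1, a BMP target that blocks basic helix-loop-helix factors, averaged 13.4 in SKOV3, 5.29 in HEY and 5.32 in PC3, so SKOV3 stood 8.13 log2 units above HEY. ID2, of the same family, averaged 10.3, 3.35 and 6.82 in SKOV3, HEY and PC3, a difference of 3.47 between PC3 and HEY; its other probe set was 1.00 higher, not lower, in PC3 than in SKOV3. The secreted BMP antagonists ran the other way: GREM1 averaged 10.8 in HEY, 7.01 in PC3 and 2.43 in SKOV3, and NOG averaged 10.0, 11.3 and 3.90 in the same order.

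Levels of receptors and ligands also separated the lines. ACVR2A, a type II activin receptor, averaged 10.2 in HEY, 10.9 in PC3 and 5.76 in SKOV3. The follistatin-like binding protein FSTL3 was 4.03 log2 units higher in SKOV3 than in HEY and 4.50 lower in PC3 than in SKOV3. TGFBI, a matrix protein named for its induction by TGF-beta, averaged 12.4 in HEY, 13.0 in SKOV3 and 8.29 in PC3, and the difference between HEY and SKOV3 was not called. LTBP1, which tethers latent TGF-beta to the matrix, was 3.50 higher in PC3 than in HEY and 4.80 higher than in SKOV3. Between PC3 and HEY, FST, the follistatin gene, differed by 3.84 and the coreceptor gene ENG by -2.33, and all their other probe sets had the same sign.

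**Figure D2:**
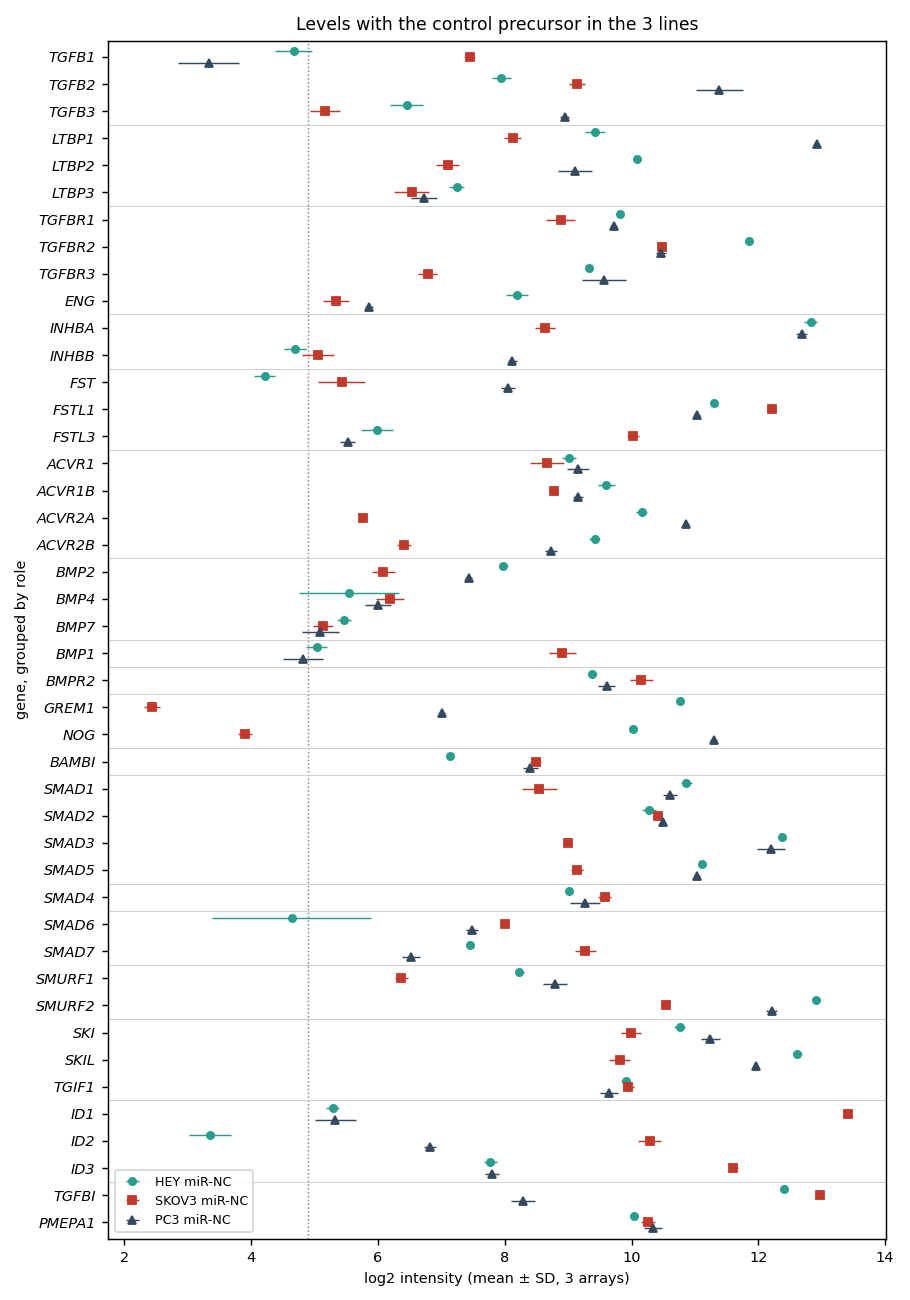
Level of each gene (log2 intensity, mean ± SD of 3 arrays) with the control precursor in HEY, SKOV3 and PC3; the dotted line is the median of all values, 4.89, and levels are compared across lines within a gene, not between genes. SKOV3 lies far above the other lines for ID1 and ID2 and far below them for GREM1, NOG, ACVR2A and INHBA.

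In the fit of all 45 arrays, miR-203a was the only one of the 3 precursors for which some members rose in every line or fell in every line. Other settings gave 1 or 2 such members for miR-205 or miR-429 as well: after quantile normalization INHBA and SMAD3 fell in all 3 lines with either, and without the arrays labelled untransfected FSTL1 rose and SMAD3 fell with miR-205 and INHBA fell with miR-429. With miR-203a TGFBR1, TGFBR3 and BMPR2 rose (1.24% of all genes rose in all 3 lines), and INHBA and SMAD2 fell (1.44% fell in all 3). TGFBR1 is the type I TGF-beta receptor, TGFBR3 the betaglycan coreceptor and BMPR2 the type II BMP receptor. INHBA encodes the subunit of activin A, and SMAD2 is a mediator of TGF-beta and activin signals. With miR-205 and with miR-429 no member was called alike in all 3 lines by limma, where 2.77% of all genes rose and 2.50% fell in all lines with miR-205 and 1.58% rose and 2.02% fell with miR-429 (at an unadjusted p under 0.05, 0 rose and 2 fell with miR-205, and 0 rose and 1 fell with miR-429). The 5 calls with miR-203a were 2 without PC3 miR-203a replicate 3, and 3 without HEY miR-NC replicate 1 or 2, HEY miR-203a replicate 1 or PC3 miR-NC replicate 1.

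For TGFBR1 the SKOV3 arrays read 8.62, 9.01 and 9.02 with miR-NC and 10.15, 10.13 and 9.74 with miR-203a. The HEY arrays read 9.82, 9.78 and 9.87 against 10.23, 10.27 and 10.24, and the PC3 arrays 9.69, 9.78 and 9.69 against 9.99, 10.11 and 10.28. In each line every miR-203a array lay above every miR-NC array. The differences (± SE of the limma fit here and throughout) were 1.13 ± 0.14 in SKOV3, 0.43 ± 0.14 in HEY and 0.41 ± 0.14 in PC3, with adjusted p of 2.64e-07, 0.0433 and 0.0157. The HEY call was lost when any of its 6 arrays was left out, and in PC3 both other probe sets of TGFBR1 differed the opposite way (by -0.40 and -0.30).

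TGFBR3 read 9.38, 9.28 and 9.32 in HEY with miR-NC and 10.08, 10.16 and 10.23 with miR-203a. In SKOV3 it read 6.80, 6.92 and 6.62 against 7.51, 8.08 and 7.73, and in PC3 9.16, 9.73 and 9.79 against 9.95, 9.85 and 10.04. The groups did not overlap in any line, although 1 PC3 control array lay well below its companions. The rises were 0.83 ± 0.14, 0.99 ± 0.14 and 0.38 ± 0.14 (adjusted p 7.6e-05, 2.92e-06 and 0.0228), and the other probe set of TGFBR3 differed the same way in all 3 lines, by 1.36, 1.00 and 1.12. The PC3 call was lost in 2 of the 6 refits that left out 1 array.

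BMPR2 rose by 0.67 ± 0.15 in HEY, 0.57 ± 0.15 in SKOV3 and 0.38 ± 0.15 in PC3 (adjusted p 0.00201, 0.00741 and 0.0304). Its HEY arrays went from 9.41, 9.30 and 9.44 to 10.04, 10.00 and 10.10, its SKOV3 arrays from 10.14, 9.99 and 10.34 to 10.65, 10.77 and 10.77, and its PC3 arrays from 9.52, 9.77 and 9.54 to 10.05, 9.89 and 10.03. No control array reached a miR-203a array in any line. The PC3 call was lost in 4 of 6 refits and the SKOV3 call in 1, and a difference in the BMPR2 response between lines was not called (adjusted p = 0.517, limma F-test).

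INHBA fell most in SKOV3, from 8.76, 8.46 and 8.67 to 7.18, 7.29 and 7.18, a difference of -1.41 ± 0.11 (adjusted p = 3.91e-12). It fell by 0.46 in HEY, from 12.91, 12.86 and 12.72 to 12.33, 12.34 and 12.43, and by 0.51 in PC3, from 12.61, 12.66 and 12.78 to 12.16, 12.17 and 12.19 (adjusted p 0.00327 and 0.000166). Treated and control arrays were fully apart in all 3 lines. Of the 2 other probe sets of INHBA, however, 1 differed the same way in SKOV3 and none did in HEY or PC3. INHBA also fell in SKOV3 with miR-429 (-0.46, adjusted p = 0.00157), where neither of them followed. It was called lower in 7 of the 9 comparisons, also in HEY with miR-205 and miR-429 and in PC3 with miR-205. Its HEY arrays read 12.03, 11.76 and 11.76 with miR-205 and 12.16, 12.19 and 12.19 with miR-429, all below those with miR-203a. The fall was therefore not particular to miR-203a.

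SMAD2 fell by similar amounts in the 3 lines, by 0.44, 0.47 and 0.56 in HEY, SKOV3 and PC3 (adjusted p 0.0118, 0.00639 and 0.000161). The arrays read 10.34, 10.33 and 10.15 against 9.67, 9.91 and 9.93 in HEY, 10.41, 10.44 and 10.39 against 9.95, 9.86 and 10.02 in SKOV3, and 10.51, 10.47 and 10.52 against 9.80, 10.02 and 9.99 in PC3. No miR-203a array reached the lowest control array of its line, and 3 of the 4 other probe sets differed the same way in each line. The HEY call was lost in 3 of 6 refits. A difference between lines was not called (adjusted p = 0.817, limma F-test). SMAD2 was called lower in 5 of the 9 comparisons, also in HEY with miR-205 and miR-429. Its HEY arrays read 9.60, 9.92 and 9.77 with miR-205 and 9.71, 9.97 and 9.82 with miR-429. In HEY the fall was therefore not particular to miR-203a.

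**Figure D3:**
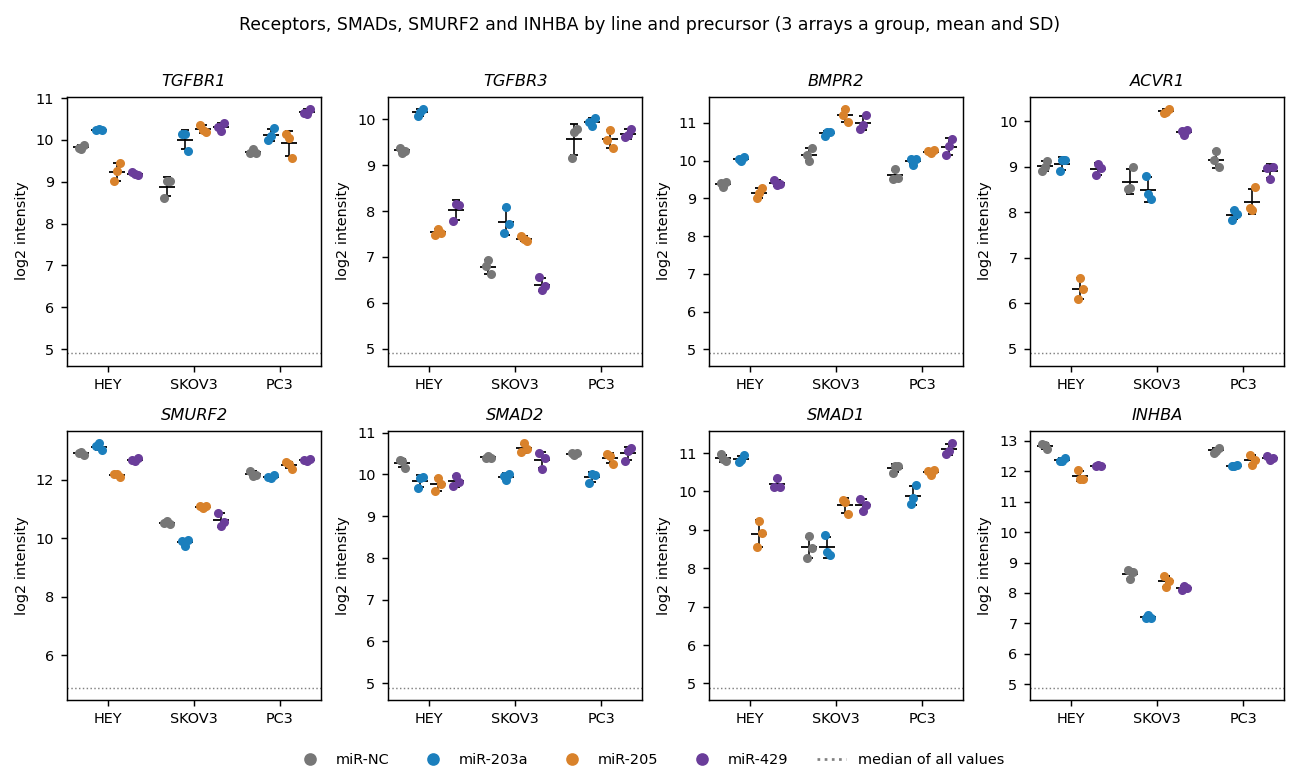
Log2 intensity on each transfected array (points) with the group mean ± SD (black bars) for the receptors TGFBR1, TGFBR3, BMPR2 and ACVR1, the ubiquitin ligase SMURF2, SMAD2, SMAD1 and the activin subunit INHBA, by line and precursor. In SKOV3 all 9 arrays with an active miRNA lie above the 3 control arrays for TGFBR1, and in HEY the miR-205 arrays lie below the control for ACVR1, TGFBR3 and SMAD1.

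Among the other TGF-beta receptors, the lines moved apart with miR-205 and miR-429. TGFBR1 rose in SKOV3 to 10.36, 10.23 and 10.19 with miR-205 and to 10.30, 10.21 and 10.40 with miR-429, above all 3 control arrays. These rises were 1.38 ± 0.14 and 1.42 ± 0.14 (2.6-fold and 2.67-fold, adjusted p 2.18e-09 and 1.31e-09), and both other probe sets were higher too, by 0.30 to 0.66. In HEY the same gene fell by 0.58 and by 0.63, to 9.02, 9.25 and 9.45 and to 9.23, 9.17 and 9.16, below every control array, although without probe sets marked as shared between transcripts the miR-429 difference was 0.12. In PC3 it rose by 0.95 ± 0.14 with miR-429 (10.65, 10.62 and 10.74, adjusted p = 2.12e-06), where 1 of its 2 other probe sets differed the same way, and differed by 0.20 with miR-205, which was not called. The responses differed between lines (adjusted p 1.1e-09 for miR-205 and 4.05e-10 for miR-429).

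TGFBR3 fell in HEY to 7.48, 7.61 and 7.53 with miR-205 and to 7.78, 8.16 and 8.13 with miR-429, well below the controls. The falls were of -1.78 ± 0.14 and -1.30 ± 0.14 (adjusted p 2.79e-13 and 1.32e-09), but its other probe set differed by 0.79 and 1.30 the other way. In SKOV3 it rose by 0.62 with miR-205 (7.45, 7.40 and 7.36, adjusted p = 0.00113) and fell by 0.39 with miR-429 (adjusted p = 0.0498, lost in 4 of 6 refits). TGFBR2, the type II TGF-beta receptor, fell in HEY with miR-205 from 11.84, 11.89 and 11.82 to 9.99, 10.78 and 10.81 (-1.33 ± 0.17, adjusted p = 9.38e-09). It rose in SKOV3 with miR-205 from 10.49, 10.53 and 10.41 to 11.12, 11.13 and 11.19, by 0.67 ± 0.17. In neither case did the arrays overlap, but its other probe set differed by 1.09 in HEY, the opposite way, and by 0.14 in SKOV3.

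Endoglin (ENG), a coreceptor for TGF-beta and BMP ligands, had the largest rise among the members in HEY. Its arrays read 8.01, 8.21 and 8.35 with miR-NC, 12.22, 11.85 and 11.93 with miR-205 and 10.71, 10.13 and 10.63 with miR-429. Every treated array lay above every control, by 3.81 ± 0.18 (14-fold, adjusted p = 6.36e-19) and 2.30 ± 0.18 (4.92-fold, adjusted p = 7.42e-13). The other probe set of ENG differed by 0.97 in the same direction with miR-205 and in the opposite direction with miR-429. The 5′ GAPDH control probe set also moved in these HEY groups, by 3.92 and -2.11, and its part in the result was not tested. In SKOV3 ENG was low (5.57, 5.27 and 5.17 with miR-NC) and was not called with any miRNA. In PC3 it was called higher with miR-203a and miR-205 and lower with miR-429. Its PC3 arrays read 5.90, 5.89 and 5.78 with miR-NC and 6.51, 6.66 and 6.01 with miR-203a. They read 6.58, 6.39 and 6.17 with miR-205 and 5.16, 5.61 and 4.94 with miR-429.

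TGFB2 encodes a TGF-beta ligand and was called in all 3 lines, with different precursors. It rose in HEY with miR-203a from 8.11, 7.85 and 7.87 to 9.19, 9.0 and 9.23 (1.19 ± 0.16, adjusted p = 1.43e-06), and fell there with miR-205 to 6.93, 6.50 and 6.80 (-1.20 ± 0.16). With miR-429 it rose in SKOV3 from 9.26, 9.02 and 9.15 to 10.13, 9.73 and 9.93 (0.79 ± 0.16, adjusted p = 0.000304). In PC3 it rose with miR-429 from 10.96, 11.57 and 11.63 to 12.30, 12.19 and 12.49 (0.94 ± 0.16, adjusted p = 1.39e-05). The arrays were separate in all these comparisons, and all 4 other probe sets of TGFB2 had the same sign as the HEY miR-203a and the SKOV3 miR-429 rises, against 3 for the HEY fall and 2 for the PC3 rise.

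TGFB1 rose in PC3 from 3.14, 3.87 and 2.97 with miR-NC to 6.60, 6.19 and 6.03 with miR-203a and to 5.97, 5.87 and 5.54 with miR-205. The rises of 2.94 ± 0.31 and 2.47 ± 0.31 (7.69-fold and 5.53-fold, adjusted p 4.36e-10 and 2.66e-08) began in the range near background, where size is only a bound, and the other probe set of TGFB1 differed the opposite way. The 5′ GAPDH control probe set was higher in the same groups by 4.95 and 3.66, whose part was not tested. TGFB1 also rose in HEY with miR-205, from 4.57, 4.43 and 5.0 to 6.17, 6.13 and 6.19 (1.49 ± 0.31, adjusted p = 6.36e-05), again from a low level and with the other probe set opposite (-0.68).

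TGFB3 fell in HEY with miR-429 by 1.44 on the log2 scale. The latent binding protein LTBP1 fell in HEY from 9.37, 9.59 and 9.30 to 7.32, 7.42 and 7.68 with miR-429, a difference of -1.95 ± 0.24 (adjusted p = 1.42e-08), and fell by 1.44 with miR-205. The other probe set of LTBP1 differed by 1.08 and 0.38 there, the opposite way. It rose in SKOV3 with miR-205 by 0.66 ± 0.24, with the other probe set on the same side. LTBP2 rose by 1.13 in HEY with miR-205, but the mean of its probe sets differed by -0.15, and LTBP3 was called once, in PC3 with miR-429 (-0.49).

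INHBB, the subunit of activin B, rose in PC3 with each precursor. It read 8.06, 8.19 and 8.10 with miR-NC in PC3, 10.04, 9.95 and 9.74 with miR-203a, 9.78, 9.60 and 9.28 with miR-205 and 9.14, 9.16 and 9.05 with miR-429. All 9 treated arrays exceeded all 3 controls, with rises of 1.79, 1.43 and 1.00 (each ± 0.18, adjusted p 9.99e-11, 1.73e-08 and 2.12e-05). INHBB was not called in HEY or SKOV3, where it read near the median of all values (4.89). With miR-NC its arrays read 4.62, 4.56 and 4.88 in HEY and 5.26, 4.78 and 5.13 in SKOV3. Follistatin (FST), which neutralizes activins, rose in PC3 with miR-203a from 7.95, 8.03 and 8.16 to 9.98, 9.71 and 9.72 (1.76 ± 0.19, adjusted p = 1.19e-09), but without the probe sets marked as shared between transcripts it differed by -0.20. FSTL3, which binds the same ligands, rose there from 5.38, 5.61 and 5.57 to 7.53, 7.06 and 7.34 with miR-203a (1.79 ± 0.18, adjusted p = 2.97e-10) and to 7.10, 7.16 and 7.45 with miR-205 (1.72 ± 0.18, adjusted p = 1.01e-09), and fell by 0.64 with miR-429. FSTL3 has 1 probe set. The 5′ GAPDH control probe set moved by 4.95, 3.66 and -0.50 in these PC3 groups, and its part was not tested.

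The same binding proteins were called in HEY. FSTL3 rose there from 6.0, 5.73 and 6.23 to 7.82, 7.32 and 7.34 with miR-205 (1.5 ± 0.18, adjusted p = 5.77e-09) and by 0.93 with miR-429, without overlap. FST rose from 4.02, 4.34 and 4.27 to 5.08, 5.10 and 5.62 with miR-205 (1.05 ± 0.19, adjusted p = 1.03e-05) and by 0.92 with miR-429. These FST rises began below the median of all values, so that the size is a bound, and both other probe sets differed the opposite way. FSTL1, a secreted glycoprotein of the same family, rose in HEY with miR-203a by 0.92 ± 0.25 (adjusted p = 0.0101).

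The type I receptor ACVR1, also called ALK2, fell in HEY with miR-205 from 8.91, 9.0 and 9.13 to 6.08, 6.55 and 6.32. In SKOV3 it rose from 8.50, 8.53 and 8.98 to 10.17, 10.21 and 10.27 with miR-205 and to 9.78, 9.69 and 9.81 with miR-429. In PC3 it fell from 9.13, 9.34 and 8.99 to 7.83, 8.04 and 7.96 with miR-203a. No groups overlapped, and the differences were -2.70 ± 0.16 for HEY (adjusted p = 6.13e-17), 1.54 ± 0.16 and 1.09 ± 0.16 for SKOV3 (adjusted p 1.21e-09 and 1.72e-06) and -1.21 ± 0.16 in PC3 (adjusted p = 4.19e-08). With miR-205 the PC3 arrays read 8.09, 8.05 and 8.56, a fall of -0.92 ± 0.16 (adjusted p = 7.25e-06). ACVR1 has 1 probe set. For miR-205 it had the smallest adjusted p of a difference between lines among the members, 1.78e-16.

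ACVR2A, which pairs with type I activin receptors, rose in SKOV3 from 5.77, 5.77 and 5.75 to 6.60, 6.56 and 6.78 with miR-203a, 6.87, 6.79 and 6.97 with miR-205 and 6.83, 6.77 and 6.62 with miR-429. All treated arrays lay above the controls, by 0.89, 1.11 and 0.97 (adjusted p 0.000332, 5.59e-06 and 5.42e-05), but its other probe set differed by -0.05, -0.21 and -0.03. In HEY it fell by 1.10 with miR-205 and by 1.13 with miR-429, and there its other probe set fell in the same direction. ACVR1B, or ALK4, fell in HEY with miR-429 from 9.46, 9.70 and 9.65 to 8.19, 7.99 and 7.95 (-1.56 ± 0.12, adjusted p = 2.29e-13), with 3 of its 4 other probe sets lower. ACVR2B rose in SKOV3 with miR-203a from 6.53, 6.34 and 6.35 to 7.27, 7.06 and 7.31 (0.81 ± 0.14, adjusted p = 4.88e-05), with its other probe set on the same side. It fell in PC3 with miR-205 from 8.81, 8.75 and 8.63 to 7.63, 7.50 and 7.57 (-1.16 ± 0.14, adjusted p = 1.06e-08).

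Of the BMP ligands, BMP2 fell in PC3 with all 3 miRNAs. Its arrays read 7.47, 7.44 and 7.37 with miR-NC, 5.44, 5.82 and 5.84 with miR-203a, 4.97, 4.65 and 5.23 with miR-205 and 4.71, 4.94 and 5.11 with miR-429. Every treated array lay more than 1 log2 unit below every control, and the differences were -1.73, -2.48 and -2.51 (each ± 0.23, adjusted p 5.06e-08, 2.71e-11 and 1.25e-10). The other probe set of BMP2 differed the same way each time. BMP2 also fell in HEY with miR-205 (-1.93) and miR-429 (-1.57), whereas in SKOV3 it rose with miR-429 from 5.96, 6.29 and 6.01 to 7.44, 6.85 and 7.12 (1.05 ± 0.23, adjusted p = 0.000592). For miR-429 the difference between lines had an adjusted p of 6.53e-11.

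BMP1, a protease that processes procollagen and BMP antagonists, fell in SKOV3 with miR-429 from 8.88, 9.13 and 8.71 to 7.65, 7.98 and 7.52 (-1.19 ± 0.23, adjusted p = 0.000162). It rose in HEY with miR-205 from 5.15, 5.10 and 4.84 to 6.39, 6.26 and 6.08 (1.21 ± 0.23, adjusted p = 2.14e-05). The SKOV3 fall with miR-205 was of -0.80 (adjusted p = 0.00913), but without probe sets marked as shared the difference was 0.19. BMP4 rose by 1.05 with miR-203a in PC3 and fell by 1.08 there with miR-429, and BMP7 was called once, in HEY with miR-205 (0.38). BMPR2 rose in SKOV3 with miR-205 to 11.20, 11.37 and 11.03 and with miR-429 to 10.84, 10.94 and 11.21, by 1.04 and 0.84 (each ± 0.15, adjusted p 1.31e-06 and 5.21e-05), above all control arrays, and 4 of its 5 other probe sets were higher each time. In PC3 it rose by 0.63 and 0.76 with the same precursors, and in HEY the differences (-0.24 and 0.02) were not called.

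The BMP antagonist GREM1 fell in HEY from 10.74, 10.80 and 10.74 to 8.82, 8.90 and 9.06 with miR-205 and to 8.87, 8.65 and 8.83 with miR-429. The treated arrays stood clear of the controls, by -1.83 ± 0.11 and -1.97 ± 0.11 (adjusted p 9.13e-17 and 5.32e-17), and the other probe set fell in the same direction. GREM1 was near background in SKOV3 and not called there. Noggin (NOG), another BMP antagonist, rose in SKOV3 with miR-205 from 3.99, 3.95 and 3.77 to 5.06, 4.80 and 4.94 (1.03 ± 0.13, adjusted p = 1.4e-07), from below the median of all values, so that the size is a bound. In HEY it fell by 0.77 with miR-205 and by 0.78 with miR-429. BAMBI, a pseudoreceptor that dampens these signals, was called by limma in 0 of the 9 comparisons, and 1 was under 0.05 unadjusted. Without the arrays labelled untransfected it was called higher in HEY with miR-203a (0.85, adjusted p = 0.000122).

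SMAD1 and SMAD4 were called lower in HEY with miR-205 and higher in SKOV3 with miR-429. SMAD1, which carries BMP signals, rose in SKOV3 from 8.27, 8.83 and 8.53 to 9.78, 9.72 and 9.40 with miR-205 and to 9.80, 9.49 and 9.66 with miR-429 (1.09 and 1.11, each ± 0.16, adjusted p 2.6e-06 and 2.69e-06). In HEY it fell with miR-205 from 10.96, 10.84 and 10.79 to 8.55, 9.23 and 8.92 (-1.96 ± 0.16, adjusted p = 7.64e-13). No treated array reached its controls. The 2 other probe sets both followed the SKOV3 rise with miR-429, neither followed that with miR-205 and 1 followed the HEY fall. In PC3 SMAD1 fell with miR-203a from 10.48, 10.67 and 10.67 to 9.68, 9.83 and 10.17 (-0.71 ± 0.16, adjusted p = 0.000368), with 1 of the 2 on the same side.

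SMAD4, the common partner, fell in HEY with miR-205 from 8.99, 9.01 and 9.04 to 5.41, 6.55 and 6.14, and all 3 of its other probe sets fell in the same direction. This difference of -2.98 ± 0.19 (adjusted p = 9.01e-16) was the second largest fall among the members after that of TGIF1. In SKOV3 with miR-429 SMAD4 rose from 9.49, 9.69 and 9.54 to 10.54, 10.38 and 10.44 (0.88 ± 0.19, adjusted p = 0.000719), but only 1 of 3 other probe sets was on the same side. Its call with miR-205 in SKOV3 (0.51, adjusted p = 0.0454) was lost whichever of the 6 arrays was left out.

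SMAD3, a mediator of TGF-beta and activin, fell in HEY with each miRNA. Its arrays read 12.43, 12.33 and 12.34 with miR-NC, 11.92, 11.74 and 11.86 with miR-203a, 11.56, 11.59 and 11.60 with miR-205 and 11.60, 11.39 and 11.46 with miR-429. All treated arrays lay below all controls, by -0.53, -0.78 and -0.88 (each ± 0.13, adjusted p 0.00541, 3.11e-06 and 6.27e-07). SMAD3 fell in SKOV3 as well, by 0.41 with miR-205 and by 0.42 with miR-429, and was not called in PC3 (-0.02, -0.31 and -0.12). SMAD5, the companion of SMAD1, fell in HEY with miR-205 from 11.17, 11.10 and 11.05 to 9.44, 9.71 and 9.61 (-1.52 ± 0.16, adjusted p = 3.14e-10), with all 4 other probe sets lower.

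Among the inhibitors, SMAD6, which blocks BMP receptors, rose in PC3 with miR-429 from 7.59, 7.43 and 7.42 to 9.75, 9.19 and 9.42. The groups were separate, and the rise was 1.97 ± 0.33 (3.92-fold, adjusted p = 9.61e-06), with 1 of its 2 other probe sets on the same side (the range was -0.96 to 0.12). In HEY it was called lower with all 3 miRNAs (-0.95, -1.25 and -1.32), but its miR-NC arrays there read 5.38, 5.35 and 3.19, the lowest below treated arrays and all near background. SMAD7, which blocks type I receptors of both branches, fell in HEY with miR-205 from 7.41, 7.50 and 7.44 to 5.95, 6.87 and 6.88 (-0.88 ± 0.24, adjusted p = 0.00162). It rose in SKOV3 with miR-205 from 9.10, 9.43 and 9.27 to 10.03, 10.02 and 9.99 (0.75 ± 0.24, adjusted p = 0.0195), and neither pair of groups overlapped.

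SMURF2, a ubiquitin ligase for SMADs and receptors, went in opposite directions within SKOV3. Its arrays read 10.51, 10.60 and 10.49 with miR-NC, 9.92, 9.73 and 9.95 with miR-203a and 11.09, 11.03 and 11.12 with miR-205. Each treated group lay wholly to its side of the controls (-0.67 and 0.54, each ± 0.12, adjusted p 9.43e-05 and 0.000677), and all 3 other probe sets followed both directions. In HEY SMURF2 fell with miR-205 by 0.75, again with all 3 other probe sets. SMURF1 was called only in HEY with miR-205, where it fell by 0.74. The mean of its probe sets differed the opposite way there, by 0.58 (adjusted p = 4.76e-06, limma).

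The corepressor TGIF1 had the largest fall of any member, in HEY with miR-205. Its arrays read 9.89, 9.84 and 9.99 with miR-NC and 5.99, 6.77 and 7.03 with miR-205; every treated array lay far below every control. The difference was -3.31 ± 0.15 (9.9-fold lower, adjusted p = 1.63e-19), and both other probe sets fell in the same direction. SKIL, a SMAD corepressor and feedback gene, fell there from 12.68, 12.62 and 12.55 to 11.15, 11.48 and 11.49 (-1.24 ± 0.13, adjusted p = 8.25e-11). SKIL rose in SKOV3 with miR-203a by 0.69 and with miR-429 by 0.78. It was called lower in 4 of the 9 comparisons, also in HEY with miR-429 and in PC3 with miR-203a and miR-205. In PC3 with miR-429 SKIL was called higher, but the mean of its probe sets differed by -0.65. SKI, its relative, fell in HEY with miR-205 by 0.92 (adjusted p = 1.64e-06) and rose in SKOV3 with miR-205 by 0.49.

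The target genes ID1, ID2 and ID3 were all called higher in HEY with miR-205 and with miR-429, and none of them was called in SKOV3. ID1 rose in HEY from 5.40, 5.20 and 5.26 to 7.76, 7.92 and 7.50 with miR-205 and to 7.60, 6.94 and 8.18 with miR-429. It rose in PC3 from 4.95, 5.47 and 5.55 to 8.78, 8.78 and 8.44 with miR-203a and to 8.16, 8.18 and 7.78 with miR-205. All treated arrays lay above the controls, and the rises were 5.44-fold, 4.88-fold, 10.2-fold and 6.56-fold (adjusted p 1.95e-12, 2.45e-11, 2.9e-15 and 6.91e-13). The control arrays read close to the median of all values, so that these sizes are bounds. The 5′ GAPDH control probe set moved by 3.92, -2.11, 4.95 and 3.66 in these groups, whose part was not tested. In PC3 with miR-429 ID1 was called lower, from a control level close to that median. Its arrays there read 4.44, 5.41 and 4.39 and overlapped the controls, and the 5′ GAPDH probe set differed by -0.50. In SKOV3, where ID1 was high and that probe set nearly level, the differences were -0.10, -0.30 and -0.19 and none was called. The ID1 control mean there (13.4) lay near those of the GAPDH control probe sets (13.7 to 13.9), so a rise may not show.

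ID3, another member of the ID family, rose in HEY with miR-429 from 7.65, 7.82 and 7.85 to 8.56, 8.96 and 8.64 (0.95 ± 0.18, adjusted p = 1.86e-05) and with miR-205 to 8.39, 8.33 and 8.04 (0.48, adjusted p = 0.0159), and fell there with miR-203a (-0.55, adjusted p = 0.0297). It fell in PC3 with miR-429 from 7.92, 7.73 and 7.74 to 6.56, 6.53 and 6.09 (-1.41 ± 0.18, adjusted p = 7.93e-08). In PC3 it rose with miR-203a to 8.46, 8.25 and 8.44 (0.58, adjusted p = 0.00492). Treated and control arrays were apart in each case, and miR-429 had opposite directions in the 2 lines. ID2 was called higher in HEY with miR-205 and miR-429 (0.70 and 1.35), from below the median of all values, and was not called in SKOV3 (0.27, -0.29 and 0.49) or PC3 (0.31, -0.19 and -0.50).

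PMEPA1, a TGF-beta target that limits SMAD2 and SMAD3 signalling, separated miR-203a from miR-205 in PC3. Its arrays read 10.19, 10.47 and 10.37 with miR-NC, 11.63, 11.75 and 11.72 with miR-203a, 9.59, 9.72 and 9.84 with miR-205 and 10.64, 10.82 and 10.72 with miR-429. The miR-203a arrays were the highest and the miR-205 arrays the lowest, with no overlap between any of the 4 groups. The differences from miR-NC were 1.35 ± 0.14 and -0.63 ± 0.14 (adjusted p 6.74e-10 and 0.000469), and both other probe sets followed the miR-203a rise. Neither followed the miR-205 fall from miR-NC, where they differed by 0.34 and 0.67. In SKOV3 PMEPA1 fell by 0.44 with miR-203a and rose by 0.66 with miR-429, and in HEY it fell by 0.64 with miR-205, where the mean over its probe sets differed by 0.19.

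TGFBI was called by limma in 0 of the 9 comparisons, and 0 were under 0.05 unadjusted. Its HEY arrays read 12.40, 12.44 and 12.35 with miR-NC, 13.14, 13.04 and 13.06 with miR-203a, 13.15, 13.04 and 13.05 with miR-205 and 11.97, 11.81 and 11.75 with miR-429. These transfected arrays did not overlap the controls, but the 3 arrays labelled untransfected HEY read 6.95, 11.63 and 12.17 and widened the shared spread (SE 0.57). Without the arrays labelled untransfected TGFBI was called in HEY with all 3 miRNAs (adjusted p 2.17e-05, 1.24e-06 and 3.9e-05), in SKOV3 with miR-429 (8.64e-05) and in PC3 with miR-203a (0.0149).

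**Figure D4:**
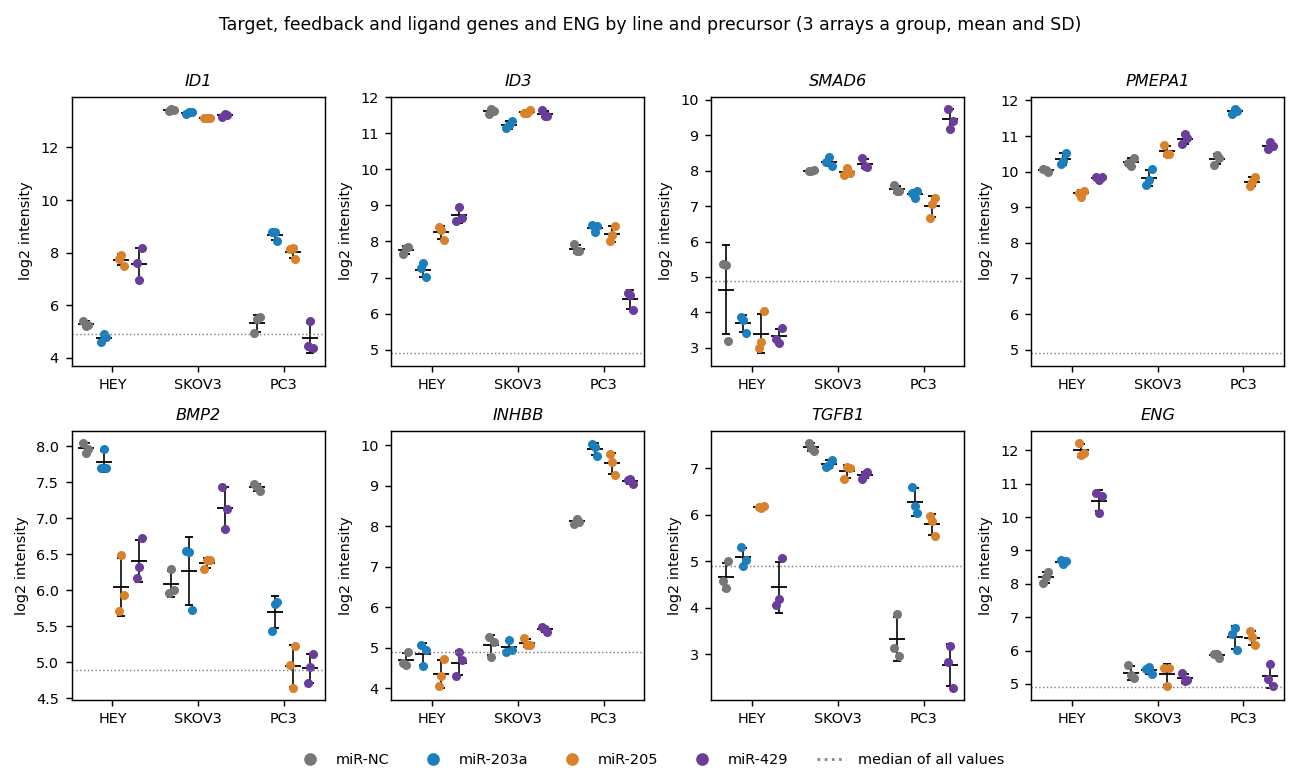
Log2 intensity on each transfected array (points) with the group mean ± SD (black bars) for the targets ID1 and ID3, the inhibitor SMAD6, PMEPA1, the ligand genes BMP2, INHBB and TGFB1, and the coreceptor ENG, by line and precursor. ID1 is near 13 in every SKOV3 group and rises with miR-203a and miR-205 in PC3, and PMEPA1 in PC3 is highest with miR-203a and lowest with miR-205.

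Set directly against miR-203a in PC3, miR-205 gave 14 called members (24.8% of all genes), 7 higher (12.9%) and 7 lower (11.9%). PMEPA1 was 3.94-fold lower with miR-205 (-1.98, adjusted p = 2.92e-13), with both other probe sets lower as well. ACVR2B (-1.27) and FST (-1.07) were the next largest falls, although FST differed by 0.12 without probe sets marked as shared, and TGFB3 (0.80), SMAD1 (0.60) and NOG (0.58) were the largest rises. ID1 was lower with miR-205 by 0.63 on the log2 scale. INHBB (-0.35), TGFB1 (-0.48), FSTL3 (-0.07) and ENG (-0.01) were not called in this comparison.

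The response to a miRNA differed between the lines for 22 of the 44 members with miR-203a (44.9% of all genes), 35 with miR-205 (69.6%) and 33 with miR-429 (66.5%) by the limma F-test. With miR-203a the smallest adjusted p belonged to ID1, PMEPA1, INHBB and TGFB1, all of which rose in PC3. With miR-205 it belonged to ACVR1, TGIF1, ENG and GREM1, of which ENG rose in HEY and the others fell there. With miR-429 it belonged to GREM1, ENG, BMP2 and ACVR1B.

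Most members had further probe sets, and these did not always follow the one used. With miR-205 in HEY, 30 called members had other probe sets; for 13 all of them had the same sign and for 17 at least 1 had the opposite sign. The counts were 6 and 14 of 20 with miR-429 in HEY, 8 and 6 of 14 with miR-205 in SKOV3, 9 and 6 of 15 with miR-429 in SKOV3, and 5 and 12 of 17 with miR-203a in PC3. At least 1 had the opposite sign for 6 of 11 with miR-203a in HEY, 7 of 12 with miR-203a in SKOV3, 10 of 15 with miR-205 in PC3 and 10 of 17 with miR-429 in PC3. SMURF2 and SMAD3 had every other probe set on the same side in each SKOV3 comparison in which they were called, and TGFBR1 had both.

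**Figure D5:**
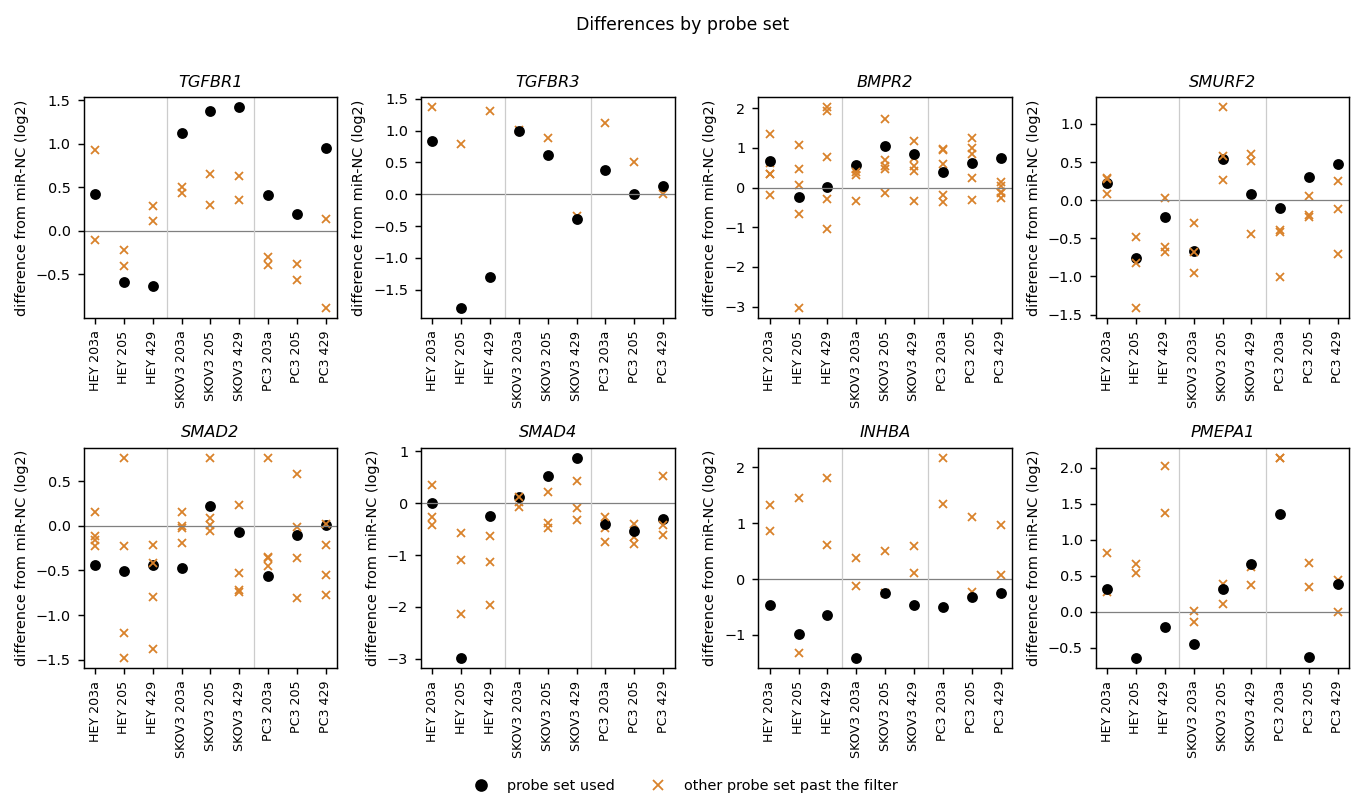
Difference from miR-NC (log2 units) on the probe set used (dots) and on every other probe set past the filter (crosses) of TGFBR1, TGFBR3, BMPR2, SMURF2, SMAD2, SMAD4, INHBA and PMEPA1 in the 9 comparisons. The probe sets of TGFBR1 lie above 0 in all 3 SKOV3 comparisons, while those of INHBA with miR-203a lie on both sides of 0 in every line.

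Promoters of 2 members that carried large rises, TGFBR1 in SKOV3 and SMAD6 in PC3, are printed. Both windows are shown because they hold a textbook SMAD motif. Each runs 250 bases upstream to 50 bases downstream of a RefSeq start (GRCh38.p14), 5′ to 3′, at chr9:99105325-99105624 and chr15:66701986-66702285, both on the plus strand. Capitals mark GGCGCC, a GC-rich SMAD motif, in TGFBR1 and GTCTAGAC, the palindromic SMAD motif, in SMAD6.
TGFBR1 promoter: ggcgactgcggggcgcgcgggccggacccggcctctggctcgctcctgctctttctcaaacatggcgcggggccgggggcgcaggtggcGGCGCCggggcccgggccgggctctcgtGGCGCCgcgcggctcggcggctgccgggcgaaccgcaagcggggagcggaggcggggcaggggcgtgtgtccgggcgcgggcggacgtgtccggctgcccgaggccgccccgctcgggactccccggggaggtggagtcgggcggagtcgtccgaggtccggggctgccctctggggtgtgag
SMAD6 promoter: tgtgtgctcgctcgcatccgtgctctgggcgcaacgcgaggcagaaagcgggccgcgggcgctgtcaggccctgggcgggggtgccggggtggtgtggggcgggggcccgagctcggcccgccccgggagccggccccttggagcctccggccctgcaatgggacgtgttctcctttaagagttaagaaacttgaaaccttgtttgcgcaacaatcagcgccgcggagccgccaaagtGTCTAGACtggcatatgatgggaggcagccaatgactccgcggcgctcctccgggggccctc
Searched on both strands, GTCTAGAC was found in 1 of the 78 promoters listed for 40 members (1.28%) and in 0.202% of 35116 promoters in all. GGCGCC was found in 21 of the 78 (26.9%) against 19.2%, and CAGAC, the short SMAD motif, in 41 (52.6%) against 45.3%. TGFBR1 has 8 promoters in the table. The one with the most GGCGCC matches was printed, and the other 7 do not hold GGCGCC. The promoter of ID1, which also carried large rises, was searched too, holds none of the 3 motifs and is not printed. Both GTCTAGAC and GGCGCC read the same on either strand, and GTCTAGAC does not contain CAGAC. These matches describe the letters in these windows only.

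Further pathway genes were read from a separate list of 28 TGF-beta response genes, 26 of them tested, and a list of 70 other genes of the pathways, 55 of them tested. Shares of the tested list are given here beside the shares of all genes called in the same direction. In SKOV3 with miR-205, 10 response genes rose (38.5% against 16.8%) and 1 fell (3.85% against 8.81%), and their median difference was 0.31 against 0.027 over all genes. NEDD9, a focal adhesion scaffold, rose by 1.62 and ADAM19, a membrane metalloprotease, by 1.26, while CDKN1A, the p21 cell cycle inhibitor, fell by 0.67. In PC3 with miR-205, 13 rose (50% against 28.7%) and 3 fell (11.5% against 19.7%), with a median of 0.57 against 0.054, led by TGM2 (1.96), a transglutaminase, and CDKN1A (1.86). In SKOV3 with miR-203a, 0 rose by the limma test (against 7.06%) and 4 fell (15.4% against 4.88%), among them COL4A1 (-1.39), a basement membrane collagen, and the kinase NUAK1 (-0.98).

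In HEY 7 response genes rose (26.9% against 33.6%) and 11 fell (42.3% against 32.2%) with miR-205, and 6 rose (23.1% against 21.0%) and 12 fell (46.2% against 35.7%) with miR-429. In PC3 10 rose (38.5% against 31.1%) and 8 fell (30.8% against 25.0%) with miR-203a, and 3 rose (11.5% against 16.3%) and 9 fell (34.6% against 29.7%) with miR-429. In HEY with miR-205 THBS1, which encodes thrombospondin and can activate latent TGF-beta, differed by -4.25, but by 1.26 when probe sets marked as shared were left out. DACT1 fell in HEY by 3.86 with miR-205 and by 3.84 with miR-429. In SKOV3 with miR-429, 3 rose (11.5% against 14.9%) and 2 fell (7.69% against 7.18%); NEDD9 rose by 2.15 and CCN2, connective tissue growth factor, by 1.29.

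Of the other pathway genes, 22 rose (40.0% against 33.6%) and 15 fell (27.3% against 32.2%) in HEY with miR-205, and 16 rose (29.1% against 31.1%) and 11 fell (20.0% against 25.0%) in PC3 with miR-203a, shares near those of all genes. There the BMP antagonist NBL1 rose by 3.60, and in HEY with miR-203a the BMP-binding BMPER rose by 2.04.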

How the data were processed

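Total RNA was amplified from the 3′ end, labelled with biotin and hybridised to single-colour expression arrays, per the labels' protocols. The values the authors deposited are log2 intensities after RMA, per the submitters' processing notes, whose version is not given. An order statistic of the arrays spread by up to 0.99 log2 units, and array medians ran from 4.49 to 4.98. The PC3 miR-429 arrays held the low end (4.49 to 4.51), and the lowest median in any other group was 4.84. How arrays were batched for normalization is not given in the sources used here. Precision is limited by how many arrays each group has.

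Probe sets with 1 gene symbol were used (41097 of 54675), and 1801 with several and 11777 with none were not. Genes entered the tests if their highest group mean exceeded 4.89, the median of all values. Group means of all 45 arrays were fitted with limma 3.58.1 (lmFit, eBayes, 30 residual and 5.24 prior degrees of freedom) in R 4.3.3, with two-sided tests, Benjamini-Hochberg adjustment over 15599 genes and a threshold of 0.05. Differences between lines were tested with a moderated F-test. Sequences are RefSeq's and motifs were counted with Python 3.11.15.

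Members and lists were chosen with earlier results of these data known. Named were the 3 largest called rises and falls in each comparison, members called alike in all 3 lines, the 4 smallest p of a difference between lines per miRNA, the target and feedback genes, and other members called in 5 or more comparisons or in none. Values of other members, such as BMP7, LTBP3, SMURF1 and TGFB3, were added after they were seen. Listed genes were named by size, up to 2 rises and 2 falls in a comparison. The closing section gives the effect of other fits, scalings, filters and probe set choices and of leaving out single arrays. Scripts were tested on simulated data.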

Additional observations from a re-analysis of the deposited data

Results flagged for a closer look

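The tests of a difference between lines called 22 members with miR-203a, 35 with miR-205 and 33 with miR-429 (limma F-test, backgrounds as given above). For miR-203a the smallest adjusted p were 1.73e-12 for ID1, 3.29e-08 for PMEPA1, 1.94e-07 for INHBB and 2.85e-07 for TGFB1. For miR-205 they were 1.78e-16 for ACVR1, 9.24e-16 for TGIF1, 1.08e-14 for ENG and 5.49e-13 for GREM1. For miR-429 they were 1.29e-12 for GREM1, 2.44e-11 for ENG, 6.53e-11 for BMP2 and 2.42e-10 for ACVR1B. GREM1 and ENG appear for both miR-205 and miR-429; in SKOV3 both genes were low in every group.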

How the results depend on the processing

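Of the 200 called differences of members, 183 kept their call in separate fits per line, 200 without the arrays labelled untransfected, 172 after quantile normalization, 188 with array medians subtracted, 192 with no filter, 197 of 197 tested with a stricter filter and 198 with an intensity trend and robust prior. The fit without the arrays labelled untransfected kept the probe sets and the genes that had been chosen with them. Replicate numbers did not pair the arrays (correlations of same-numbered deviations from -0.152 to 0.126), and the replicate block kept 199 of the calls. The choice of probe set mattered most: averaging the probe sets of a gene, 127 kept their call, 49 lost it and 24 changed sign, and without probe sets ending in _x_at or _s_at 136 of 168 kept it, 16 lost it and 16 changed sign. The cause was not tested. With the mean of probe sets, the following signs turned among named genes. In HEY with miR-203a they were INHBA (0.58) and GREM1 (0.17). In HEY with miR-205 they were LTBP2 (-0.15), FST (-0.13), SMURF1 (0.58) and PMEPA1 (0.19). In HEY with miR-429 they were TGFBR3 (0.0014), INHBA (0.59) and PMEPA1 (1.06). In SKOV3 they were TGIF1 (-0.34) and SMAD4 (-0.052) with miR-205 and INHBA with miR-429 (0.080), and in PC3 TGFBR1 (-0.097), INHBA (1.00), SMAD3 (0.57) and SMAD6 (0.46) with miR-203a, INHBA (0.18), SMURF2 (-0.014) and PMEPA1 (0.13) with miR-205, and ACVR1B (-0.44), SMAD1 (-0.048), SMURF2 (-0.022) and SKIL (-0.65) with miR-429. Without probe sets ending in _x_at or _s_at they were in HEY TGFB1 (-0.68), FST (-1.25) and THBS1 (1.26) with miR-205 and TGFBR1 (0.12) and FST (-0.62) with miR-429, in SKOV3 BMP1 (0.19) and SMAD4 (-0.48) with miR-205 and SMAD4 with miR-429 (-0.33), and in PC3 TGFB1 (-0.51), TGFBR1 (-0.40), FST (-0.20) and BMP1 (-0.093) with miR-203a, TGFB1 (-0.52) and TGIF1 (0.55) with miR-205, TGFBR1 with miR-429 (-0.88) and FST for miR-205 against miR-203a (0.12). Counts of called members moved by over 1.5 times for miR-203a in HEY with a fit per line (4) and for miR-429 in PC3 after quantile normalization (13). Asking for at least 2-fold left 1, 22 and 11 in HEY, 2, 6 and 5 in SKOV3, 10, 6 and 5 in PC3 (miR-203a first and miR-429 last), 3 for miR-205 against miR-203a and 14 between PC3 and HEY. Members called alike in all 3 lines with miR-203a numbered 3 with array medians subtracted and 2 with the mean of probe sets. With miR-205 they numbered 2 without the arrays labelled untransfected and after quantile normalization, and 1 with the replicate block, medians subtracted, the stricter filter, no _x_at or _s_at probe sets, or the trend. With miR-429 they numbered 1 without the arrays labelled untransfected and with the block, and 2 after quantile normalization and with the mean of probe sets. Leaving out single arrays gave 7 to 10 members for miR-203a in HEY, 11 to 15 for miR-205 in SKOV3, 14 to 20 for miR-429 in PC3, and 2 to 5 alike with miR-203a and 0 to 1 with miR-205. The count was 7 without HEY miR-NC replicate 2 or HEY miR-203a replicate 1, 11 without SKOV3 miR-NC replicate 1 and 14 without PC3 miR-429 replicate 3. The counts alike in all lines and of differences between lines have no value in a fit per line.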
